A study of Homo sapiens with 10 samples.

Results

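The genes described here are those of the human proteasome, taken as every RefSeq protein-coding gene on chromosomes 1 to 22 and X whose symbol begins with PSM, a letter from A to G and a number. The rule found 50 of 19974 protein-coding genes. Of these, 43 encode constitutive subunits, activators, an inhibitor or assembly chaperones, and 5 encode subunits known from immune cells (PSMB8, PSMB9, PSMB10), the thymus (PSMB11) or the testis (PSMA8). The other 2 matched by name only: PSMC3IP encodes a meiotic recombination factor, and PSME3IP1 a protein that binds the activator PSME3. All 50 are counted below unless stated, and 48 remain without these.

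The cells were hTERT-RPE1, retinal pigment epithelial cells of human origin that telomerase has made immortal, labelled wild type and with no treatment in the labels. CUT&Tag uses an antibody to bring a transposase to its target, where the enzyme cuts and tags the DNA. It was made for RNA polymerase II with phosphate on serine 5 of the tail, a state typical of polymerase just after initiation (Pol II in what follows, in 6 libraries), and for H3K4me1, a histone mark of enhancers and promoter borders, in 4 libraries. The authors' processed files were 4 peak lists, 2 for each target, each merging 3 Pol II or 2 H3K4me1 libraries, and list 1 and list 2 below carry the labels R1 and R2. These 2 lists are the only replicates of a target, and the labels do not say whether separate cultures lie behind them. A peak list holds no read counts, so the depth is unknown.

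The proteasome is the protease that degrades proteins tagged with ubiquitin. Its core particle, the 20S, is a barrel of outer alpha rings and inner beta rings, and its cap, the 19S, has ATPases that unfold a substrate and non-ATPase subunits that bind it and remove its ubiquitin. Interferon makes many cells replace the catalytic beta subunits PSMB5, PSMB6 and PSMB7 by PSMB8, PSMB9 and PSMB10, which changes the peptides made for display on MHC class I, while PSMB11 is a catalytic subunit of thymic cortical epithelium and PSMA8 an alpha subunit of male germ cells.

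Most proteasome genes carried Pol II. Peaks of both Pol II lists lay within 1 kb of the same end of the gene model at 39 of 50 members (78%), against 39.4% of all protein-coding genes. H3K4me1 peaks of both lists lay within 5 kb of an end at 46 of 50 members (92%), against 78.7% of all protein-coding genes. Both targets were present at 38 members, against 38.8% of all protein-coding genes. PSMB5 had Pol II without H3K4me1, 8 members had H3K4me1 without Pol II in both lists, and PSMA8, PSMB11 and PSMF1 had neither. Of genes with Pol II, 97.4% of the 39 members and 98.6% of all 7866 coding genes also had H3K4me1. The shares of all coding genes with H3K4me1 alone or with neither target were not computed. These counts are descriptions with no test, since genes are not replicates of a condition.

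The strand and start of 44 members could be read from the RefSeq promoter table. Pol II of both lists lay within 1 kb of the start in 37 of these 44 genes, against 39.9% of the coding genes with such an entry. H3K4me1 lay within 5 kb of the start in 40 of 44, against 75.6%. At the far end, where the gene model stops, Pol II of both lists was found at 3 of 44 members, against 7.67%. These 3 were PSMC4, PSMD3 and PSMD11, which also had Pol II at the start.

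Constitutive members and those of the immune system, thymus and testis differed in which of them had a peak. Of the 43 constitutive members and regulators, 34 (79.1%) had Pol II in both lists, and 41 (95.3%) had H3K4me1. Of the 5 others, the 3 immune subunits had both targets, and the thymus and testis subunits had neither. With 5 genes in the smaller group, each gene's own values are given below in place of a comparison of shares.

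**Figure D1:**
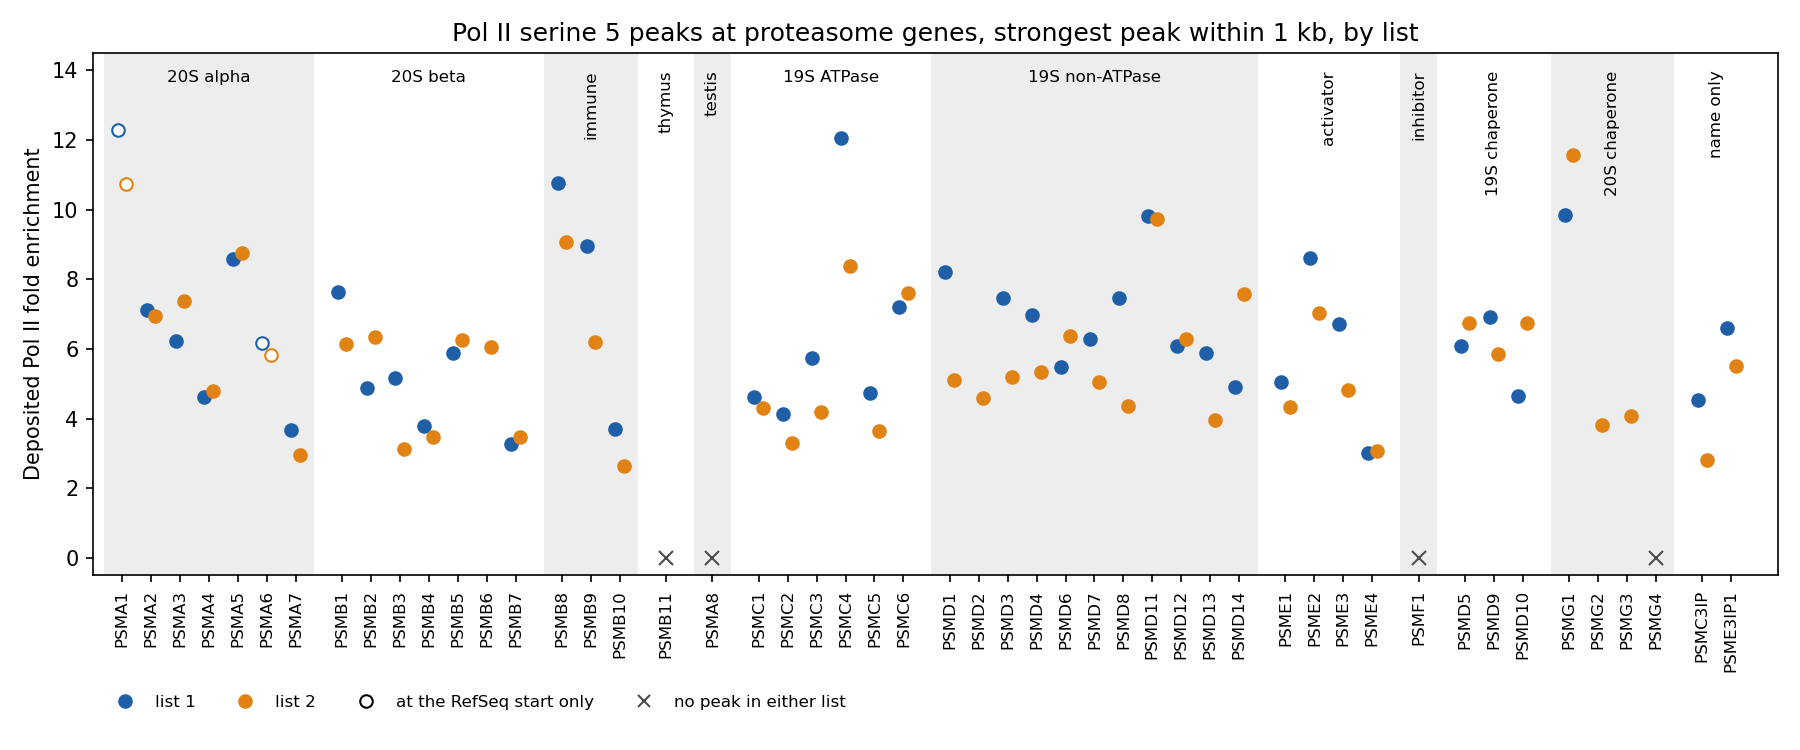
The fold enrichment deposited for the strongest Pol II peak within 1 kb of an end is plotted for each of the 50 members, ordered by role, with list 1 in blue and list 2 in orange; open circles mark peaks found only at the RefSeq start and crosses mark members with no peak in either list. Most members lie between 3 and 10, PSMC4 is highest in list 1 (12.1) and PSMG1 in list 2 (11.6) among the filled circles, and the crosses are PSMB11, PSMA8, PSMF1 and PSMG4.

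The strength of a peak is given here as the authors' fold enrichment, a ratio for each peak, and as its percentile of -log10 q among all peaks of its list. Among the 39 members with Pol II the median fold was 6.10 in list 1 and 5.52 in list 2, close to the 5.99 and 5.36 of all 7866 coding genes with Pol II. Folds were above those all-gene medians in both lists at 15 of the 39 members. The share was similar among all coding genes with Pol II, at 3004 of 7866. The highest mean folds of the 39 members belonged to 5 genes of different roles: PSMG1, PSMC4, PSMB8, PSMD11 and PSMA5. They ranked at percentiles 98.2, 97.2, 96.5, 96.0 and 91.5 of the mean fold among coding genes with Pol II. The top 10% by mean fold thus held these 5 of 39 members (12.8%), and 787 of all 7866 coding genes with Pol II. Proteasome genes therefore differed from the average coding gene in how often they bore Pol II, and little in the median fold once they bore it.

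The lists gave similar ranks. Across the 39 genes Pearson's r of the log2 fold between lists was 0.76 and Spearman's rho 0.70, as a description across genes that share the same libraries. Fold was higher in list 1 at 25 of 39 members (64.1%), as it was at 72.6% of all coding genes with Pol II. A difference between the lists at a single gene, in the direction of list 1, was thus the common case.

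PSMB8 had the strongest Pol II of the immune subunits. It encodes the subunit that replaces PSMB5, and its gene lies on chromosome 6 (32840717 to 32844679, minus strand) in the MHC class II region beside TAP1 and TAP2, which encode the transporter of peptides for MHC class I. The peak ran from 32844094 to 32844883 in both lists, with fold 10.8 in list 1 and 9.06 in list 2 and the summit 12 and 17 bp from the start. H3K4me1 covered the same start with fold 9.65 and 10.6, the highest H3K4me1 at a start among the members in each list. The noncoding gene PSMB8-AS1 begins 593 bp from the PSMB8 start and runs across it on the other strand, and because peaks carry no strand, Pol II of both genes cannot be told apart.

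PSMB9, the immune counterpart of PSMB6, shares its promoter with TAP1. The starts lie 488 bp apart on opposite strands. Pol II had a fold of 8.97 in list 1, with the summit 119 bp from PSMB9 and 369 bp from TAP1, and of 6.21 in list 2, with the summit 336 bp from PSMB9 and 152 bp from TAP1. Which of the pair is nearer to the summit therefore differed between the lists. H3K4me1 at the PSMB9 start had fold 6.77 and 5.78, and TAP2 had Pol II of its own with fold 7.89 and 6.74.

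PSMB10, the immune counterpart of PSMB7, had the weakest Pol II of the immune subunits. Its fold was 3.70 in list 1 and 2.63 in list 2, the lowest of all members in list 2. The summits lay 1013 and 1216 bp inside the gene, which spans only 67934506 to 67936850 of chromosome 16 on the minus strand. A second peak of list 2, with fold 2.04 and its summit 186 bp inside, reached the start, and no Pol II peak of list 1 overlapped the promoter. H3K4me1 had fold 5.10 and 5.02, again inside the gene, and list 1 had a further H3K4me1 peak of fold 3.82 over the start. In list 2 an H3K4me1 peak overlapped the promoter as well, without covering the start base. PSMB10 lost its Pol II call when the window was narrowed to 0.5 kb, when the summit had to lie in the window, or when only peaks above the median -log10 q were used.

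**Figure D2:**
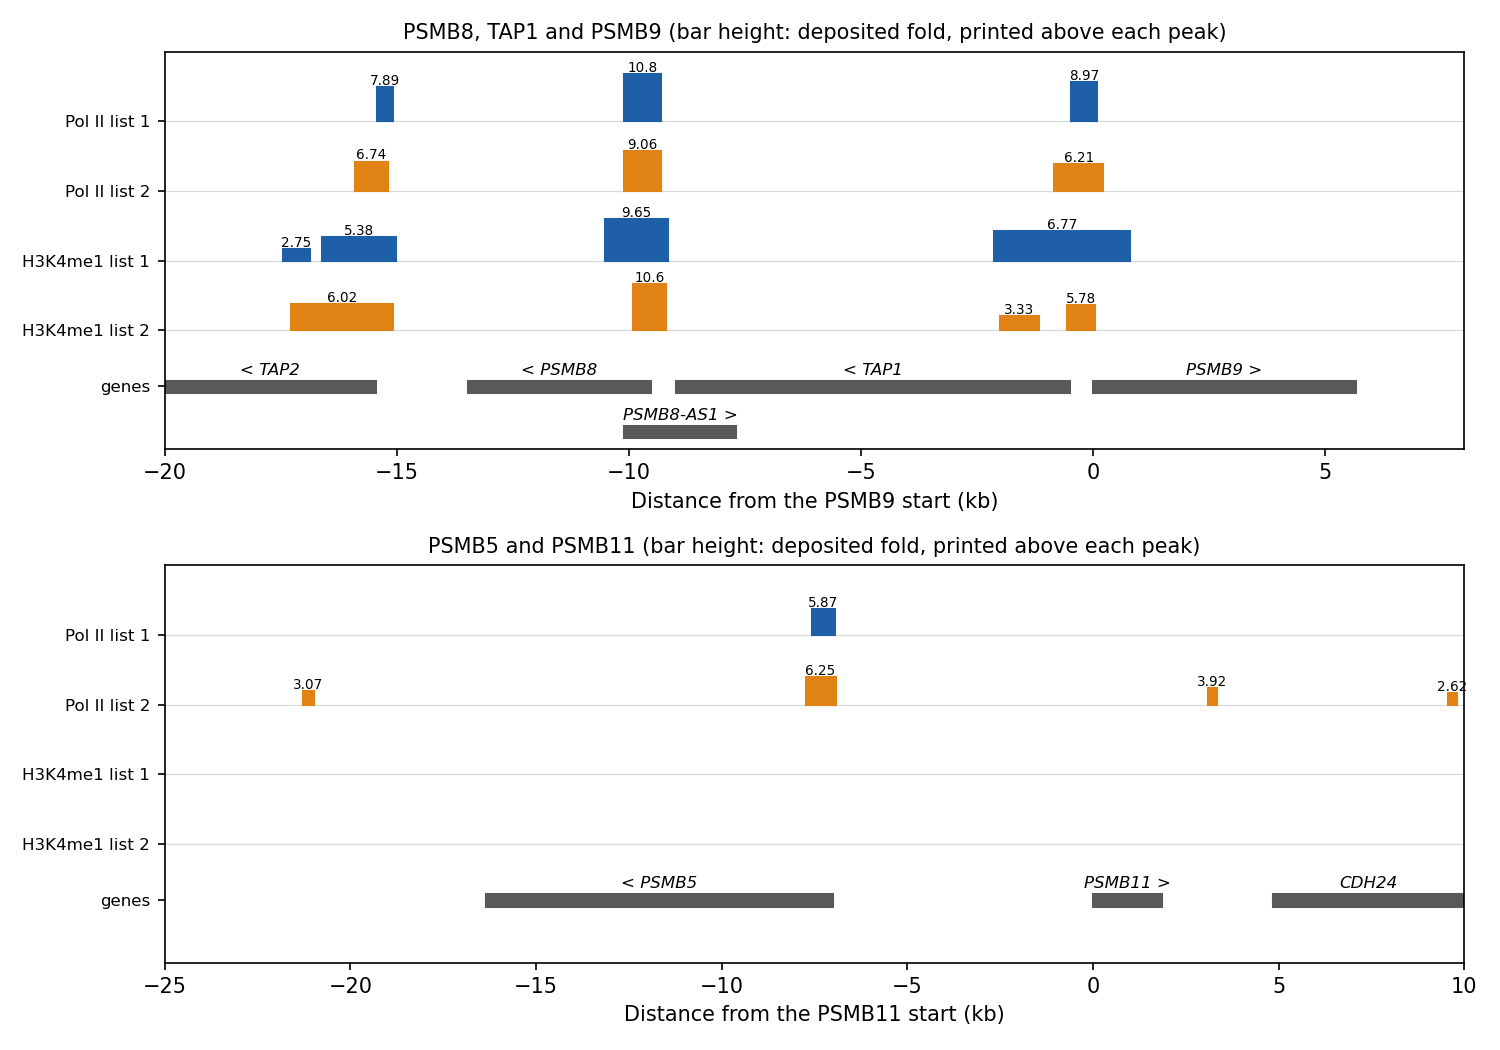
Peaks of the 4 lists are drawn as bars with the deposited fold as height (printed above each), by distance in kb from the PSMB9 start (upper panel) or the PSMB11 start (lower panel), with gene models below and arrowheads for strand. PSMB8 and the promoter between TAP1 and PSMB9 carry both targets in both lists, PSMB5 carries Pol II alone, and PSMB11 carries no peak.

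Of the constitutive counterparts, PSMB5 was below PSMB8 in both lists. PSMB5, the chymotrypsin-like subunit, had fold 5.87 and 6.25 with the summit 29 and 336 bp from its start. It was the only member with Pol II and no H3K4me1 within 5 kb. The nearest H3K4me1 peak lay 18322 bp (list 1) and 18165 bp (list 2) from the far end of PSMB5, and 27691 and 27534 bp from its start.

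PSMB6, the caspase-like subunit that PSMB9 replaces, had a Pol II peak in list 2 alone, with fold 6.07, near the 6.21 of PSMB9 in that list. H3K4me1 lay on the same end of PSMB6 with fold 8.50 and 8.25. PSMB7, the trypsin-like subunit that PSMB10 replaces, had Pol II of fold 3.27 and 3.47. PSMB7 was thus below PSMB10 in list 1 and above it in list 2.

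The promoters of these genes are shown because Pol II lies on or beside them, 250 bases before and 50 after the RefSeq start (GRCh38.p14), 5′ to 3′ in the direction of the gene. Capitals mark matches, on either strand, to the motifs named with the motif counts below, such as the interferon-type box GAAANNGAA, the GC box GGGCGG, the CCAAT box CCAAT and the YY1 motif AAGATGGC. PSMB8 is chr6:32844630-32844929, minus strand, PSMB9 is chr6:32853942-32854241, plus strand, PSMB10 is chr16:67936801-67937100, minus strand, and PSMB5 is chr14:23035171-23035470, minus strand. The table used here had no entry for PSMB6 and PSMB7.
PSMB8: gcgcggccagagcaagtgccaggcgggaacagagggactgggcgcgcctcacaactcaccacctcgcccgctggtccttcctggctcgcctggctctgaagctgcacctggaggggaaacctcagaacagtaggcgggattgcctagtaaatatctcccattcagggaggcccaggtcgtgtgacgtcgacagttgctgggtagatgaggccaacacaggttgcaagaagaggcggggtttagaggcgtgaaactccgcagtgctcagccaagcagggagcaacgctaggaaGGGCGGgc
PSMB9: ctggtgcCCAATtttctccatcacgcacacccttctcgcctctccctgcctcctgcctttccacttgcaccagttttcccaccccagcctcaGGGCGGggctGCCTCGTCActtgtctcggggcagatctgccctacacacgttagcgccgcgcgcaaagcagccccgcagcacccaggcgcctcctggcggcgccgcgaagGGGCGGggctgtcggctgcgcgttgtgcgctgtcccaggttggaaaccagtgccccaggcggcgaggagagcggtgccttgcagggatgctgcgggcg
PSMB10: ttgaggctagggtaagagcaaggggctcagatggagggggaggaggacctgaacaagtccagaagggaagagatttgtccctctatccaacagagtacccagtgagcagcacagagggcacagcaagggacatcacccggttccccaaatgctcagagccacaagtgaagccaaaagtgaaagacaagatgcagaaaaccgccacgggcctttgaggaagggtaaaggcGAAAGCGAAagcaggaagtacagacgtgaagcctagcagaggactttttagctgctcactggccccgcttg
PSMB5: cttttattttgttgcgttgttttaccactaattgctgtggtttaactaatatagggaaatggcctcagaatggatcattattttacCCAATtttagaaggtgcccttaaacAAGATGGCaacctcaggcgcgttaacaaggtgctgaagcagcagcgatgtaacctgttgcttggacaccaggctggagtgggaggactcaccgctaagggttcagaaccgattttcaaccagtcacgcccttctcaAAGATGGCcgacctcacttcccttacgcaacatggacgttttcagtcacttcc

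The PSMB8 promoter held 1 GC box, after the start, and no interferon-type box in these letters. PSMB10 held GAAAGCGAA at position -21, counted with the start base as 1 and the base before it as -1. PSMB9 held a pair of GC boxes at positions -158 and -48 and the antioxidant-type box TGACNNNGC, read on the other strand, at -148. PSMB5 held AAGATGGC at positions -139 and -3. In CpG content PSMB10 (7 CpG) and PSMB5 (10 CpG) were among the 5 poorest of the 44 member promoters, whose median was 22, and PSMB9 had 26. A match is a run of letters and not a site shown to be bound.

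PSMB11 and PSMA8 had no Pol II peak in either list within 1 kb of an end and no H3K4me1 within 5 kb. PSMB11 (chromosome 14, 23042212 to 23044060) starts 6992 bp from the PSMB5 start, on the opposite strand. The nearest Pol II was the PSMB5 peak, 6950 bp away, in list 1 and a peak of fold 3.92 at 1250 bp from its far end in list 2. PSMA8 (chromosome 18, 26133869 to 26193355) had its nearest Pol II peak inside the gene, with fold 9.69 and 8.93, the summit 37270 and 37289 bp from the start, and no H3K4me1 base in the gene. That internal peak was 411 and 415 bp wide and stood at percentiles 80.9 and 80.7 of -log10 q.

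Their promoters are set beside each other as examples without any peak, chosen after the values were seen. PSMA8 is chr18:26133619-26133918, plus strand, and PSMB11 is chr14:23041962-23042261, plus strand. Capitals mark the same motifs, with the ETS core CCGGAAG and the TATA box TATAAA among them.
PSMA8: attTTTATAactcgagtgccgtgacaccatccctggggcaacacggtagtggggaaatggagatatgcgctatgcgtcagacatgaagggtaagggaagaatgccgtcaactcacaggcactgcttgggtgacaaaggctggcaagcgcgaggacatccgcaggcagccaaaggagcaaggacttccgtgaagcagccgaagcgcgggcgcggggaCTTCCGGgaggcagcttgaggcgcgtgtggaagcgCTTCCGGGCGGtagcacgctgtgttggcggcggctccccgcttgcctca
PSMB11: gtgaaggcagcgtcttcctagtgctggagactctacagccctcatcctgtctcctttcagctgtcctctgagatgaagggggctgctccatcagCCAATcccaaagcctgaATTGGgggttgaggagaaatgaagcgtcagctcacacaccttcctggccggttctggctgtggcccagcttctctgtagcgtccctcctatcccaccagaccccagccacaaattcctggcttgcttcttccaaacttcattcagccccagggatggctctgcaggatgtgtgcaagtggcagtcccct

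Both promoters lacked a peak of either target, and they differed in base composition. PSMA8 held 25 CpG, more than the member median, 2 ETS cores read on the other strand at positions -34 and 2, and a GC box that overlaps the second of these. PSMB11 held 4 CpG, the fewest of the 44 together with PSMF1, and 2 CCAAT boxes, 1 on each strand. Marker genes of the usual tissues of both did not meet the rule for Pol II at an end: 0 of 3 for testis (DDX4, DAZL, SYCP3) and 0 of 2 for thymic epithelium (FOXN1, CCL25) did so, nor did any of 4 leukocyte genes, among them PTPRC, CD3E and CD14. FOXN1 had Pol II inside the gene, over 934 bases in list 1 and 1511 in list 2. PTPRC had it over 1514 and 2324 bases, and at an end in list 1 only. Culture markers of epithelial and mesenchymal cells met the rule at 4 of 4 genes (KRT8, KRT18, VIM, COL1A1), although the KRT18 summits lay nearer to KRT8. Those of pigment epithelium met it at 1 of 7: RPE65, BEST1, RLBP1, MITF, OTX2 and TYR did not, and the PMEL summits lay nearer to CDK2. Pol II nevertheless covered 4787 and 5139 bases inside MITF, 618 and 768 inside BEST1, 503 and 583 inside TYR, and 108 and 227 inside OTX2. BEST1 had an end peak in list 2 only, and OTX2 in list 1 only. RPE65 and RLBP1 had no Pol II inside the gene.

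The alpha subunits form the outer rings, whose gate controls entry into the barrel. Both Pol II lists had a peak at an end of 5 of the 7 constitutive alpha genes and at the RefSeq start of all 6 that had one in the table, and H3K4me1 at 7 of 7. PSMA5 was the strongest at a gene end, with fold 8.59 and 8.76 and the summit 7 bp from the start in both lists. PSMA3 had 6.22 and 7.37 and PSMA2 7.12 and 6.96. PSMA4 (4.61 and 4.80) and PSMA7 (3.68 and 2.96) were lower in both lists. PSMA7 had no start in the table, so its values, from the model end at 62136733, may not be those of its start. At its other end, 62143394, only list 2 had Pol II, with fold 3.39.

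PSMA1 and PSMA6 show how the rule depends on the gene model. Neither had Pol II within 1 kb of a model end, because the outermost annotated end lies 123276 bp (PSMA1) and 13759 bp (PSMA6) from the RefSeq start used here. At that start PSMA1 had the highest Pol II fold of any member in list 1, 12.3, and 10.7 in list 2, with the summit 5 and 4 bp away and H3K4me1 of fold 8.66 and 9.68. PSMA6 had Pol II of fold 6.18 and 5.82 and H3K4me1 of fold 7.22 and 6.71 there. Counted by the start, every constitutive alpha gene with an entry bore Pol II.

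The constitutive beta subunits line the chamber, and 6 of 7 had Pol II in both lists. PSMB1 had the highest fold in list 1 (7.63) and 6.15 in list 2, but its list 1 summit lay 75 bp from TBP, which encodes the TATA-binding protein, and 987 bp from PSMB1. In list 2 the summit was 119 bp from PSMB1 and 1181 bp from TBP. Each list had 2 Pol II peaks within 1 kb of this PSMB1 end, and the values are those of the stronger. In list 1 the weaker peak covered the end base of PSMB1. PSMB2 had fold 4.89 and 6.35, PSMB3 5.16 and 3.13, and PSMB4 3.80 and 3.47. The immune subunits PSMB8 and PSMB9 exceeded each constitutive beta gene in list 1, and PSMB8 alone did so in list 2.

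The 20S chaperones were split. PSMG1 and PSMG2 encode a pair of proteins that help the alpha ring to form, and PSMG3 and PSMG4 another. PSMG1 had the highest percentile of -log10 q of all members (mean of both lists 97.4) and fold 9.84 and 11.6, with the summit 70 and 138 bp from its RefSeq start and H3K4me1 of fold 7.43 and 7.18. PSMG2 and PSMG3 had Pol II in list 2 only, with fold 3.81 and 4.09, and PSMG4 in neither list. All 4 had H3K4me1 within 5 kb, so that 3 of the 8 members with H3K4me1 but not Pol II of both lists were chaperones of the core. H3K4me1 covered the RefSeq start of PSMG4 in both lists, with fold 4.39 and 6.09, at a position 4543 bp inside the gene model. Its nearest Pol II peaks lay 2192 bp (list 1) and 3142 bp (list 2) from its far end.

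The ATPases of the cap form the ring that unfolds substrates. Pol II of both lists lay at 5 of 6 of their genes, and H3K4me1 at 6 of 6. PSMC4 was the strongest, with fold 12.1 in list 1 and 8.38 in list 2, the highest of the 39 members in list 1. Its summits, 102 and 97 bp from PSMC4, lay 92 and 97 bp from the noncoding gene LOC124904720. PSMC6 had fold 7.20 and 7.62, PSMC3 5.73 and 4.19, PSMC5 4.74 and 3.65, and PSMC1 4.63 and 4.31.

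PSMC2 was the ATPase gene that was not counted. Its list 2 peak (fold 3.30) lay 305 bp from the model end at its start, and its list 1 peak (4.14) lay 860 bp from the far end. In list 1 the nearest Pol II to the start side was 2426 bp away with a fold of 9.18. H3K4me1 lay over the start side in both lists, with fold 4.41 and 3.89.

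The non-ATPase subunits of the cap belong to its base or its lid. Pol II of both lists lay at 10 of 11 of their genes and H3K4me1 at 11 of 11. PSMD11, a scaffold subunit of the lid, had fold 9.81 and 9.73, with the summit 759 bp inside the gene in both lists. PSMD3 had fold 7.46 and 5.20, PSMD1 8.22 and 5.11, and PSMD4, a receptor for ubiquitin, 6.97 and 5.33. PSMD14, the deubiquitinase of the lid, had 4.92 and 7.58. The remaining 5, PSMD6, PSMD7, PSMD8, PSMD12 and PSMD13, lay between 5.49 and 7.45 in list 1 and between 3.97 and 6.36 in list 2.

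PSMD2, a large base subunit that binds shuttle factors, missed the count by its position. A Pol II peak was present in both lists, with fold 6.23 and 4.58, but its summit lay 1288 and 1328 bp inside the gene, and the list 1 peak began 1023 bp from the start. A second peak lay 6542 bp inside in both lists, with fold 6.52 and 4.13. With a window of 2 kb PSMD2, PSMC2 and PSMG2 joined the members with Pol II, which then numbered 42. The share of all coding genes with that window was not computed. The PSMD2 promoter had 39 CpG, the most of the 44.

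At the far ends, the Pol II of PSMD3 had fold 5.43 and 3.97 with summits 22 and 94 bp from the end of the model. That of PSMC4 had 4.09 and 5.29, with summits 810 and 892 bp inside the end. That of PSMD11 had 4.29 and 3.28, from peaks that did not overlap between the lists. The PSMD11 summit lay 291 bp inside the end in list 1 and 341 bp beyond it in list 2. In each of the 3 genes both far-end values were below the start value of the same list.

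The chaperones of the cap, PSMD5, PSMD9 and PSMD10, help to assemble its base and are absent from the finished proteasome. All 3 had both targets. Pol II had fold 6.09 and 6.76 at PSMD5, 6.92 and 5.85 at PSMD9, and 4.65 and 6.76 at PSMD10. The PSMD5 summits lay 11 and 63 bp from the transcribed pseudogene CUTALP, nearer than to PSMD5 (164 and 90 bp). H3K4me1 at the PSMD10 start had fold 9.21 and 6.87.

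The activators bind the ends of the core in place of the cap, and all 4 of their genes had both targets. PSME2, whose product forms a ring with that of PSME1 and is known as interferon-inducible, had fold 8.63 and 7.04 at mean percentile 97.1 of -log10 q, second among the 39 members counted by gene ends. Its summits lay nearer to RNF31, which encodes a subunit of a linear ubiquitin ligase (57 and 86 bp), than to PSME2 (208 and 179 bp). PSME1 had 5.05 and 4.33, and PSME3, a nuclear activator, 6.73 and 4.82. PSME4 had 3.01 in list 1, the lowest of the members there, and 3.07 in list 2, with its summits 613 and 1543 bp inside the gene. Like PSMB10, it lost its Pol II call with the 0.5 kb window, with summits in the window and with above-median peaks. Its strongest H3K4me1 had summits 4621 and 4124 bp from the start, and its H3K4me1 call was lost with a window of 1 kb.

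PSMF1, which encodes a protein that inhibits the core in the test tube, was the constitutive member with neither target. Its nearest Pol II lay inside the gene, with fold 4.12 and 4.71 and the summit 36718 and 36779 bp from its start. H3K4me1 peaks of fold 4.90 and 5.66 began 4992 and 5110 bp from the start, so that the one of list 2 fell outside the 5 kb window, and a window of 10 kb counted them. The promoter had 4 CpG.

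Both members matched by name had both targets. Pol II at PSMC3IP had fold 4.53 and 2.80, with the summit 4 bp from the start in both lists, although the gene is known for its role in meiosis. Pol II at PSME3IP1 had 6.60 and 5.52, and its summit lay 100 bp from RSPRY1 and 136 bp from PSME3IP1. Without these genes 37 of 48 members (77.1%) had Pol II in both lists.

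Among the 39 members counted by gene ends, the strongest Pol II by mean percentile of -log10 q, apart from PSMB8, was that of PSMG1, PSME2, PSMD11 and PSMC4. Their promoters are printed for comparison with the immune subunits above. PSMG1 is chr21:39183402-39183701, minus strand, PSME2 is chr14:24146561-24146860, minus strand, PSMD11 is chr17:32444260-32444559, plus strand, and PSMC4 is chr19:39970915-39971214, plus strand.
PSMG1: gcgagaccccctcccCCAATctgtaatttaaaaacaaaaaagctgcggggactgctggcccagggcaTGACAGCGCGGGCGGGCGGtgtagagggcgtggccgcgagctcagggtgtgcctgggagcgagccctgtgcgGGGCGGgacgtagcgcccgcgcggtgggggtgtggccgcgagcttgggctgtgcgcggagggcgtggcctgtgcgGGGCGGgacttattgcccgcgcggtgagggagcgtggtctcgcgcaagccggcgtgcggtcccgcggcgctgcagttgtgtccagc
PSME2: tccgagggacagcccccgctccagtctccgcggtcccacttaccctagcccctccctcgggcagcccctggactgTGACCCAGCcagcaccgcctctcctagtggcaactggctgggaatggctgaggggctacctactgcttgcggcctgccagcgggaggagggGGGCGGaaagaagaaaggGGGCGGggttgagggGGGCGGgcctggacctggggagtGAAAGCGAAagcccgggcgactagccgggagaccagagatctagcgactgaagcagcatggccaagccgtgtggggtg
PSMD11: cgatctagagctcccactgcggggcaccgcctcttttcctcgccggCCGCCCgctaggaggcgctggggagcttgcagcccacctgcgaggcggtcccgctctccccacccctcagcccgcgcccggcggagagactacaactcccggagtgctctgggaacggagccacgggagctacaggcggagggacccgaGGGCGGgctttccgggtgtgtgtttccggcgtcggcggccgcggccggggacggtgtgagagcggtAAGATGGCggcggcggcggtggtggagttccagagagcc
PSMC4: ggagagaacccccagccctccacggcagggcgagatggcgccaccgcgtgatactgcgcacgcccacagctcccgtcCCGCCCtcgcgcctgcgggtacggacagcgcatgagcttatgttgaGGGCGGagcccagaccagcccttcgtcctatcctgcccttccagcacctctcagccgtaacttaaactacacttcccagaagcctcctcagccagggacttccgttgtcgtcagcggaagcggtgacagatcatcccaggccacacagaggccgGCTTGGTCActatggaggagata

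PSME2 and PSMB10 held the same 9 letters, GAAAGCGAA, at positions -28 and -21. PSME2 also held 3 GC boxes and an antioxidant-type box. PSMG1 held 4 GC boxes, of which the first 2 overlap, and an antioxidant-type box next to them at -183. PSMD11 held 2 GC boxes and AAGATGGC at position 12, and PSMC4 held 2 GC boxes and an antioxidant-type box at position 28, on the other strand.

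Over all 44 member promoters, 4 of the 9 motifs were found in at least 1.5 times the share of the 15812 coding promoters in the table. The antioxidant-type box TGACNNNGC, a short form of the site of NFE2L1 and NFE2L2, which are known to activate proteasome genes, was in 13 members (29.5%) against 14.3% of all. The ETS core CCGGAAG was in 14 (31.8%) against 14.2%, the interferon-type box GAAANNGAA in 7 (15.9%) against 7.06%, and the YY1 motif AAGATGGC in 4 (9.09%) against 3.91%. The others were closer: CCAAT 21 (47.7%) against 36.3%, GGGCGG 30 (68.2%) against 58.5%, TATAAA 5 (11.4%) against 9.64%, and the nuclear respiratory factor 1 box GCGCANGCG 5 (11.4%) against 11.04%. The NF-kB motif GGGANTTTC was in 0 members against 1.20%. Both strands were read, motifs may overlap, and these shares were not tested.

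The antioxidant-type box was found in PSMB3, PSMB9, PSMC4, PSMD1, PSMD3, PSMD5, PSMD9, PSMD12, PSME1, PSME2, PSME4, PSMG1 and PSMG2. The median promoter held 22 CpG in the members and in all coding genes, and a GC content of 62% against 62.7%, so that the members stood at the middle of all promoters in these measures.

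Peaks at member starts were placed close to the start base. For the 37 members with Pol II of both lists there, the start base itself lay in a Pol II peak of both lists at 28 (75.7%), against 58.2% of 6270 other coding genes with Pol II at the start. Summits lay within 250 bp of the start at 29 of 37 members in list 1 (78.4%) and 24 in list 2 (64.9%), against 58.5% and 58.4% of the others. Over both ends of the model, the median summit distance was 119 and 143 bp in the 39 members and 221 and 228 bp in all coding genes with Pol II. Peaks were 551 and 805 bp wide in the members and 475 and 747 bp in all, as medians.

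H3K4me1 lay on the start and upstream of it. The start base was covered by H3K4me1 of both lists at 32 of 37 members (86.5%), against 68.8% of the other genes. The summit of the strongest H3K4me1 peak within 5 kb lay upstream of the start at 30 and 31 of the 36 members with such a peak (83.3% and 86.1%). The shares were 74.0% and 76.2% of the others. This peak need not be the one on the start: at PSMD1 its summit lay 3788 and 3829 bp upstream. At 500 bp inside the gene, 1 of 37 members was still covered in both lists (2.70%), against 18.7% of the others. Of the offsets computed inside the gene this one put the members furthest below the others: at 400 bp the shares were 16.2% and 20.9%, at 1000 bp 10.8% and 15.9%, and at 1900 bp 13.5% and 6.27%. A Pol II peak overlapped an H3K4me1 peak at 35 of 37 member starts in each list (94.6%), as at 95.1% and 92.9% of the others.

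**Figure D3:**
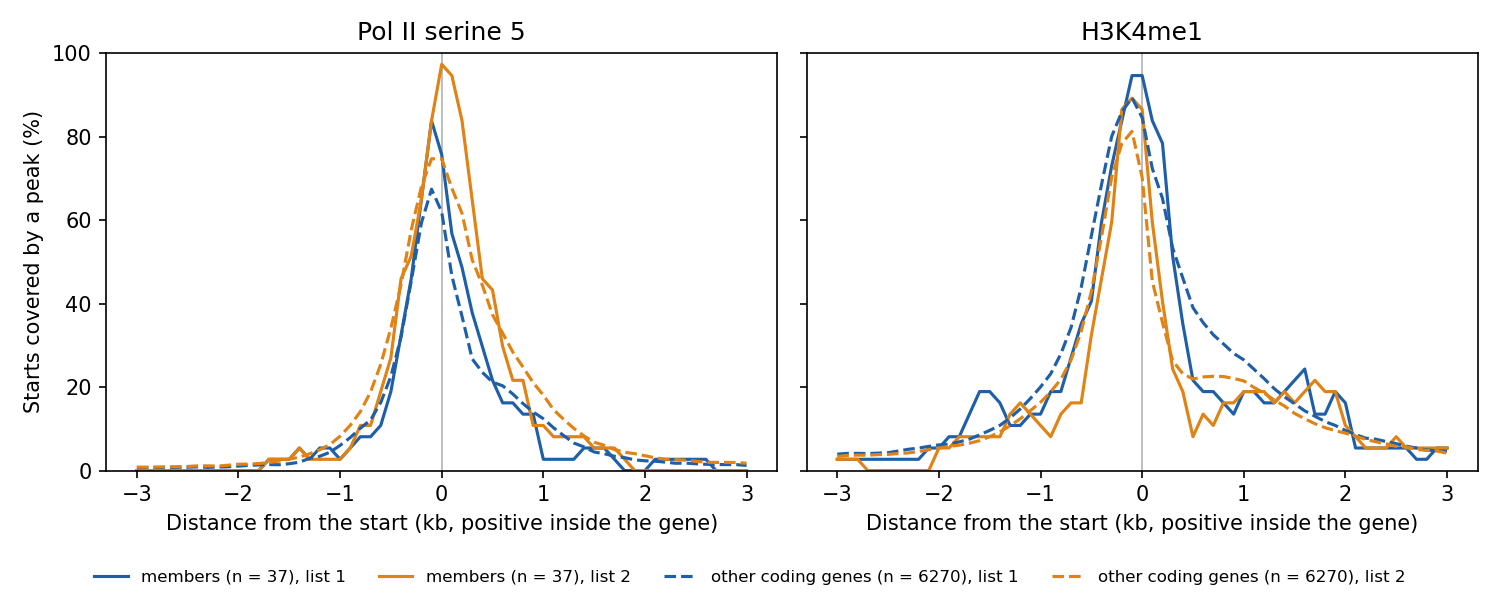
The share of starts covered by a peak (%) is plotted against the distance from the start in kb, positive inside the gene, for Pol II and H3K4me1, with solid lines for the 37 members, dashed lines for 6270 other coding genes with Pol II at the start, and a colour for each list. At the start base, Pol II covers 75.7% (list 1) and 97.3% (list 2) of members while H3K4me1 covers 94.6% and 86.5%, and their H3K4me1 falls to 21.6% and 8.11% at 500 bp inside.

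Members with a higher Pol II fold mostly had a higher H3K4me1 fold as well. Across 35 members with both targets of both lists within 1 kb of the start, the log2 mean folds of the targets had Pearson's r of 0.70 and Spearman's rho of 0.64. Across 5903 other coding genes these were 0.48 and 0.46. These are descriptions across genes, which are not independent replicates, and the targets share the cell line and the assay. PSMB8, PSMC4, PSMA1 and PSMA5 were high for both targets, and PSME2 (Pol II 7.84, H3K4me1 4.34 as means of both lists) and PSMD1 (6.67 and 4.32) combined high Pol II with low H3K4me1.

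**Figure D4:**
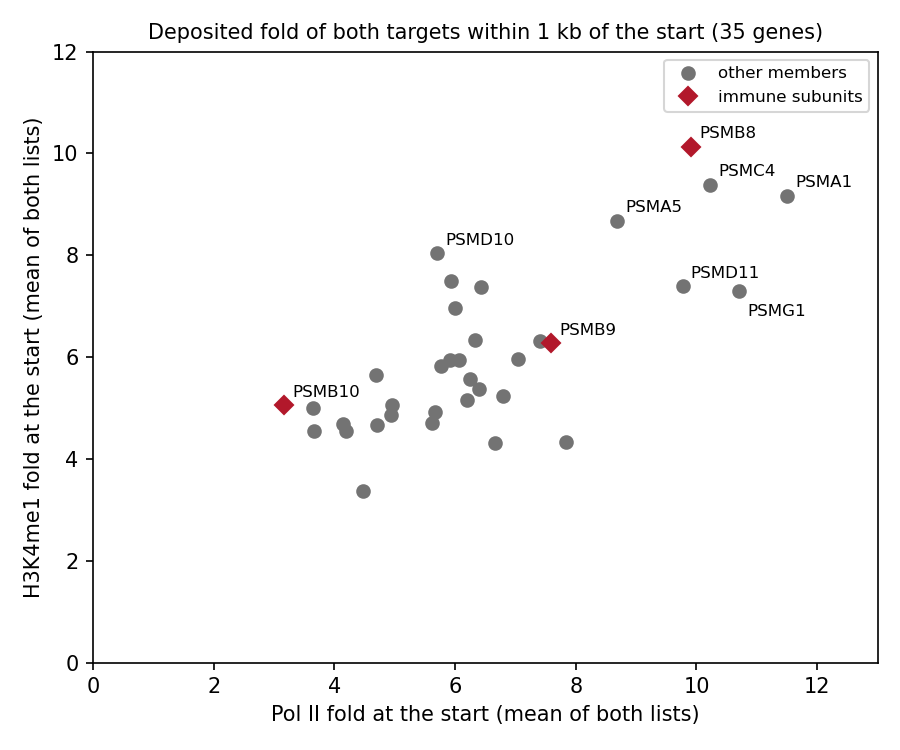
Each point is 1 of 35 members with both targets within 1 kb of the start, placed by the deposited Pol II fold (x) and H3K4me1 fold (y), both means of the 2 lists, with the immune subunits as diamonds. PSMB8 has the highest H3K4me1 fold (10.1) beside a Pol II fold of 9.91, and PSMB10 the lowest Pol II fold (3.17).

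Several members share their start region with another gene. Of 44 members, 8 (18.2%) had the start of another coding gene on the opposite strand within 1 kb, against 12.5% of all coding genes in the table. The partners were MRPL32 at PSMA2 (202 bp), TAP1 at PSMB9 (488 bp), FTSJ3 at PSMC5 (232 bp, inside PSMC5), HPD at PSMD9 (179 bp), ATG4A at PSMD10 (236 bp), SIRT3 at PSMD13 (45 bp), RNF31 at PSME2 (265 bp) and ACYP2 at PSME4 (120 bp). All 8 pairs had Pol II within 1 kb of both starts, which a single peak can give since the starts lie closer than the window. The summit lay nearer to a coding neighbour than to the member in both lists at PSMA2, PSMD13, PSME2 and PSME3IP1, and in 1 list at PSMB1 and PSMB9. When a peak was given only to the nearest coding gene, PSMA2, PSMB9, PSMD13, PSME2 and PSME3IP1 were no longer counted, which left 34 members. The share of all coding genes under that rule was not computed.

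Other genes of the pathway were counted by the same rules. Of 35 genes in 5 groups, 27 (77.1%) had Pol II, against 39.4% of all coding genes, and 34 had H3K4me1, against 78.7%. The share with Pol II ran from 50% to 100% between the groups, and no test was made. Of further subunits and assembly factors 3 of 6 had Pol II in both lists. ADRM1, a ubiquitin receptor of the cap, had it in list 1 only (3.32), and AKIRIN2, which helps proteasomes enter the nucleus, and FBXO7 had it in list 2 only (2.80 and 6.25).

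All 4 genes tied to the transcription of subunits had Pol II. NGLY1, the enzyme that processes NFE2L1, had fold 11.8 and 11.4, although its summits lay near OXSM as well (198 and 225 bp, against 249 and 276 bp). NFE2L1 had 6.10 and 3.88, and NFE2L2 5.21 and 3.69. Of the ubiquitin enzymes and shuttles 9 of 11 had Pol II, UBE3C in list 1 only (7.56) and UBQLN2 in neither.

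Ubiquitin genes had Pol II at 5 of 6. RPS27A, which encodes ubiquitin fused to a ribosomal protein, had fold 8.38 and 6.40. Its summits lay nearer to an end of CLHC1 (24 and 22 bp) than to RPS27A (636 and 682 bp). UBA6, a ubiquitin-activating enzyme, had 9.24 and 8.24. Of 8 genes of antigen processing 6 had Pol II, among them TAP1, TAP2 and IRF1 (6.08 and 4.48). ERAP2 had none at an end, and NLRC5, a regulator of MHC class I genes, had it in list 2 only (4.19). The peak given to TAP1 by fold is the one at PSMB8, which lies within 1 kb of the far end of TAP1 without reaching it. At the TAP1 start the fold was 8.97 and 6.21, from the peak shared with PSMB9.

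Annotated pseudogenes named after the subunits rarely carried Pol II. Of 51 such genes 1 (1.96%) had it in both lists, against 3.69% of 16664 annotated pseudogenes. H3K4me1 lay within 5 kb of 18 of them (35.3%), against 30.5%. The exception was PSMD10P1 on chromosome 20 (50913715 to 50914595), with Pol II fold 17.0 and 12.1 at percentiles 99.6 and 99.3 of -log10 q and H3K4me1 fold 8.64 and 8.80. The Pol II folds exceed those of PSMD10 itself (4.65 and 6.76), while the H3K4me1 fold of list 1 is below that of PSMD10 (9.21). Whether reads were shared between the copies was not tested.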

How the data were processed

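CUT&Tag of Pol II serine 5 (6 libraries) and H3K4me1 (4 libraries) in hTERT-RPE1 was used as the 4 peak lists deposited by the authors. Per the submitters' processing notes the build is hg38 and BWA, SICER and deepTools were used, without roles; the caller, its threshold and any control were not given in the sources used here, and the meaning of R and T is not stated. Of the 10 columns, column 5 is the deposited score, 10 times column 9 cut to a whole number (99.9% of peaks or more). Column 7 is the deposited ratio, read as fold enrichment. Column 9 is the deposited -log10 q. Column 10, a further value from the authors (unit: other), places the summit within the peak. Column 8 was not used. No counts are in these files, so depth is unknown and intervals were not computed.

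Gene models came from a RefSeq table (GRCh38.p14) without strand. Strand, start and sequence came from its promoter table, which held 44 of 50 members and 15812 of 19974 coding genes. A peak counted if it overlapped the window (1 kb for Pol II, 5 kb for H3K4me1) around the same end by at least 1 bp in both lists, and the strongest by fold was described. Percentiles are within a list. No test was made. Members, gene lists, motifs and the rule for named genes were chosen with earlier results of these data known. Named were the 5 immune, thymus and testis subunits, members lacking a target, the 3 of each role with the highest mean percentile of -log10 q, those with extreme folds, those nearer to another gene, and pathway genes lacking Pol II or among the top 5. A few pathway genes under this rule are not reported here. Other members are named with their values for completeness. Alternatives were single lists, other windows, summits in the window, above-median peaks and nearest-gene assignment. The look-up found 50 of 50 planted peaks among 400 simulated ends, with 0 false. The software was matplotlib 3.10.9, scipy 1.17.1, pandas 2.3.3 and numpy 2.4.6 under Python 3.11.15.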

Additional observations from a re-analysis of the deposited data

How the results depend on the processing

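Of 83 recomputed values, 68 stayed within 1.5 times the main count or within the spread between lists, and 15 moved. With Pol II peaks above the median -log10 q of their list, 25 members had Pol II (27.0% of all coding genes), 22 of them constitutive, 24 had both targets and 22 had H3K4me1 alone. With H3K4me1 peaks above the median, 26 members had H3K4me1, 23 both targets, 16 Pol II alone, 3 H3K4me1 alone and 8 neither. With H3K4me1 within 1 kb, 40 members had H3K4me1 (63.9% of all coding genes), 4 had Pol II alone, 5 H3K4me1 alone and 6 neither. H3K4me1 alone was found at 5 members with a Pol II window of 2 kb and at 13 when the summit had to be nearest to the member. The share of all coding genes was not computed for above-median H3K4me1 peaks, single H3K4me1 lists or wider H3K4me1 windows. Nor was it computed for other Pol II windows, summits in the window or nearest-gene assignment. Whether the members exceeded all coding genes in those settings is therefore not known. Without replicate 1 or replicate 2 of a target, Pol II was found at 40 to 44 members (constitutive 35 to 39, immune, thymus and testis 3 in each), H3K4me1 at 46 to 47, both at 38 to 43, Pol II alone at 1, H3K4me1 alone at 3 to 9 and neither at 2 to 3. The share of all coding genes with Pol II also rose from 39.4%, to 43.7% in list 1 alone and 47.4% in list 2 alone. Without Pol II replicate 1 the members gained were PSMB6, PSMC2, PSMD2, PSMG2 and PSMG3, and H3K4me1 alone fell to 3. The median Pol II fold, as the mean of both lists, was 5.81 and lay between 5.80 and 5.98. Counts by the start alone were not made for members with H3K4me1 alone or with neither target. No paired analysis was possible because no result comes from a test. Depth limits which weak peaks were called and could not be assessed.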
